A study of Mus musculus with 8 samples.

Results

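Transcripts of 9 genes that join heart muscle cells or carry current between them were described in hearts of TAZG197V mice and wild-type (WT) mice. They are the connexin genes Gja1, Gja5 and Gjc1, the sodium channel subunit gene Scn4b, and the desmosome genes Dsp, Jup, Pkp2, Dsg2 and Dsc2. The genes were taken by name from a list, as 9 of the 55471 genes in the count files, and all 9 were among the 15084 genes with enough counts to be tested. TAZG197V mice carry a missense mutation found in a patient with Barth syndrome. It was knocked in with CRISPR/Cas9 at the locus of Tafazzin (Taz), the X-linked gene for a mitochondrial enzyme that remodels cardiolipin. Founders were made in C57BL/6N zygotes and bred to C57BL6/J before the line was expanded, and mice of both genotypes were untreated. The labels and the study's methods describe mating of heterozygous mice to obtain homozygous offspring, while the study elsewhere states that the mutants were hemizygous males and that both genotypes were adults of the same age. RNA came from a small piece of heart of each mouse, and the labels do not say which chamber it was cut from. Each genotype had 4 libraries, with WT 1 and 2 and TAZG197V 1 and 2 on sequencing lane 7 and the libraries numbered 3 and 4 on lane 8.

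Gap junctions are clusters of channels, each built of connexins from both neighbouring cells, through which ions pass from one heart cell to the next. Desmosomes anchor the intermediate filaments of neighbouring cells to each other, and both structures sit at the intercalated disc, the end-to-end contact of heart muscle cells. The upstroke of the cardiac action potential is carried by the voltage-gated sodium channel, whose pore is accompanied by beta subunits such as the product of Scn4b. Gja5 is known as a connexin of the atria, the fast conduction fibres and arterial endothelium. Inherited changes in the desmosome genes are a known cause of arrhythmogenic cardiomyopathy.

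Scn4b, Dsc2, Gja5 and Gjc1 transcripts were lower in TAZG197V hearts, Pkp2 transcripts were higher, and Gja1, Dsp, Jup and Dsg2 were not called. A gene was called when its adjusted p in the quasi-likelihood test of edgeR was under 0.05, its fitted change exceeded 0.20 on the log2 scale, up or down, and its mean scaled count was at least 50. The 5 calls among 9 genes stand beside a background of 33.4% of all tested genes called. The 4 lower calls compare with 15% of tested genes called lower, and the 1 higher call with 18.5% called higher. The genes and the lists below were chosen with earlier results of these data known, so these comparisons with all genes are descriptions only. Values of the 4 WT and the 4 TAZG197V libraries did not overlap for Scn4b, Pkp2, Dsc2 and Gjc1, against 33.2% of all tested genes without overlap. The median fitted log2 fold change of the 9 genes was -0.22, and that of all tested genes was -0.01. In a piece of tissue, fewer cells of a type and less RNA per cell cannot be told apart. The p-values measure the spread between these libraries.

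**Figure D1:**
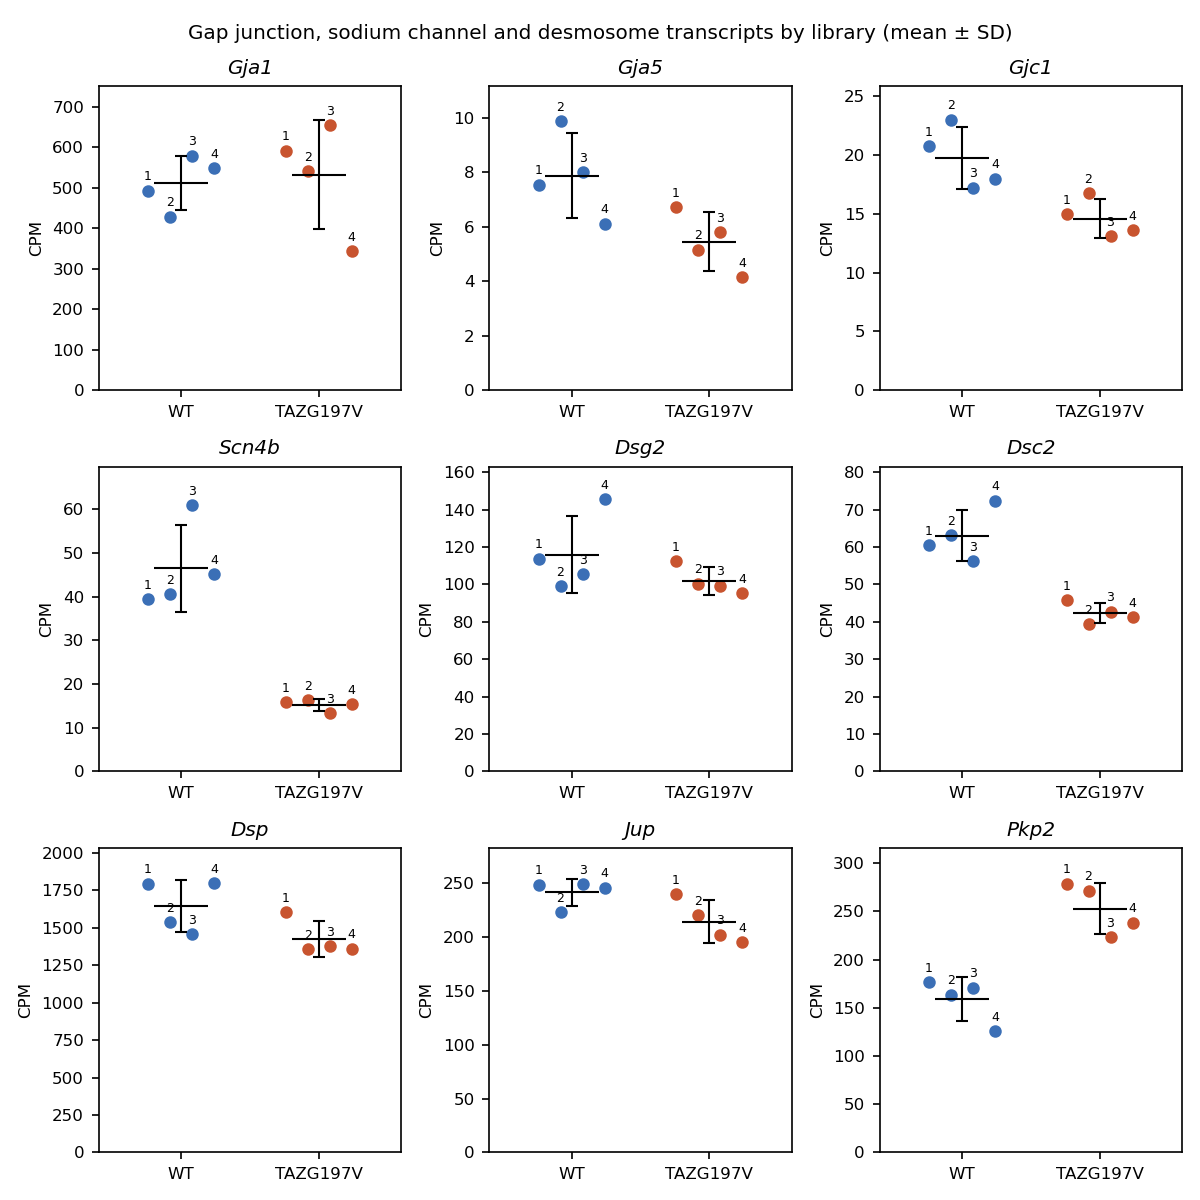
Level of each of the 9 genes in CPM (counts relative to a common library size, vertical axes from 0) in the 4 WT and 4 TAZG197V libraries, numbered as in the labels, with a horizontal bar at the mean and a whisker for the SD. The TAZG197V libraries lie below every WT library for Scn4b, Dsc2 and Gjc1 and above every WT library for Pkp2, and the groups overlap for the other genes.

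The libraries held between 23055689 and 36301031 counted reads. Levels are given as CPM, counts brought to a common library size after scaling for library composition. Taz, the mutated gene, lay between 58.7 and 63.8 CPM in WT and between 44.3 and 50.4 CPM in TAZG197V libraries, so the genotypes were separated. A missense change need not alter the transcript level, so Taz does not check the labels in the way a deletion would. The 6 genes listed as ventricular markers summed to 36028 to 41391 CPM in WT and 29664 to 33464 CPM in TAZG197V. Most of this was Myh6, at a mean of 25314 CPM in WT and 20962 CPM in TAZG197V. Myh6 is also a gene of mouse atrial muscle, so the sum does not show the chamber. Myl2 had means of 7720 CPM in WT and 6667 CPM in TAZG197V. Some libraries stood apart in markers of other tissues. The summed atrial markers reached 1244 CPM in WT 2 and 152 CPM in WT 1, against 34.9 and 93.2 CPM in the other WT libraries and 46.3 to 143 CPM in TAZG197V. In TAZG197V 2, at 143 CPM, Nppa alone was at 127 CPM and Myl7 was at 0.459 CPM. The summed neural markers were 95.8 CPM in WT 4 and 247 CPM in TAZG197V 4, against 3.88 to 8.25 CPM in the other libraries. The summed red cell genes reached 55072 CPM in WT 4, against 227 to 1065 CPM elsewhere.

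Gja1, the gene for connexin 43 and the main connexin of working ventricular muscle, is on chromosome 10 from 56377330 to 56402513 (positions on GRCm38, the mm10 assembly, from GENCODE M21, where all 9 genes are protein-coding). Its level was 493, 428, 579 and 549 CPM in WT 1 to 4 and 591, 540.5, 655 and 344 CPM in TAZG197V 1 to 4. TAZG197V 1 to 3 thus lay within or above the WT range, while TAZG197V 4 lay below every other library. The mean was 512 ± 66.2 CPM in WT hearts and 533 ± 134 CPM in mutant hearts (SD, n = 4 each). The fitted log2 fold change was -0.04 (SE 0.10, 95% interval -0.27 to 0.20, edgeR adjusted p = 0.799). The sign of this value was not settled, since it turned positive in 9 of 22 alternative analyses, some of them with all 8 libraries kept. Without both libraries numbered 4 Gja1 was called higher, at 0.27 on the log2 scale (edgeR adjusted p = 0.0237), and TAZG197V 4 is also the library with the most neural transcripts, whose part in the result was not tested. Within lane 7 the fitted value was 0.30 and within lane 8 it was -0.17, and neither was called.

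Gja5, the gene for connexin 40, is on chromosome 3 and is annotated from 96904693 to 97077416. It was the least abundant of the 9 genes, at 7.54, 9.87, 8.00 and 6.12 CPM in WT 1 to 4 and 6.72, 5.15, 5.81 and 4.14 CPM in TAZG197V 1 to 4. The highest value was in WT 2, and TAZG197V 1 lay above WT 4, so the groups overlapped. The mean fell from 7.88 ± 1.55 to 5.46 ± 1.09 CPM (SD, n = 4 each), a log2 fold change of -0.47 (SE 0.12, 95% interval -0.75 to -0.19, edgeR adjusted p = 0.0175). The counts behind these values were 113 to 359 reads per library. The fold change kept its sign under all 22 alternative analyses, from -0.62 to -0.39, and was called in 16 of them. It lost its call without TAZG197V 2 (edgeR adjusted p = 0.0677) and within either lane, where it was -0.56 in lane 7 and -0.50 in lane 8.

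Atrial muscle is a known site of connexin 40, and WT 2 and WT 1 were the libraries with the most atrial transcripts. Of the 10 atrial markers 8 were tested and 4 were called lower in TAZG197V hearts, beside 15% of all tested genes. Myl7, the atrial myosin light chain, was at 385 CPM in WT 2 and 27 CPM in WT 1 and at most 1.28 CPM in the other libraries. Without WT 1 and WT 2, an omission chosen after the values were seen, the fitted log2 fold change of Gja5 was -0.41, against -0.47 with all libraries. It was no longer called (edgeR adjusted p = 0.104), and in that fit the calls over all genes also fell, from 5043 to 3660. The 7 arterial endothelial markers, a second known site of connexin 40, gave no call. Their summed level was 93.9 to 114 CPM in WT and 86.5 to 96.7 CPM in TAZG197V libraries. The part of either tissue in the Gja5 value was not tested.

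**Figure D2:**
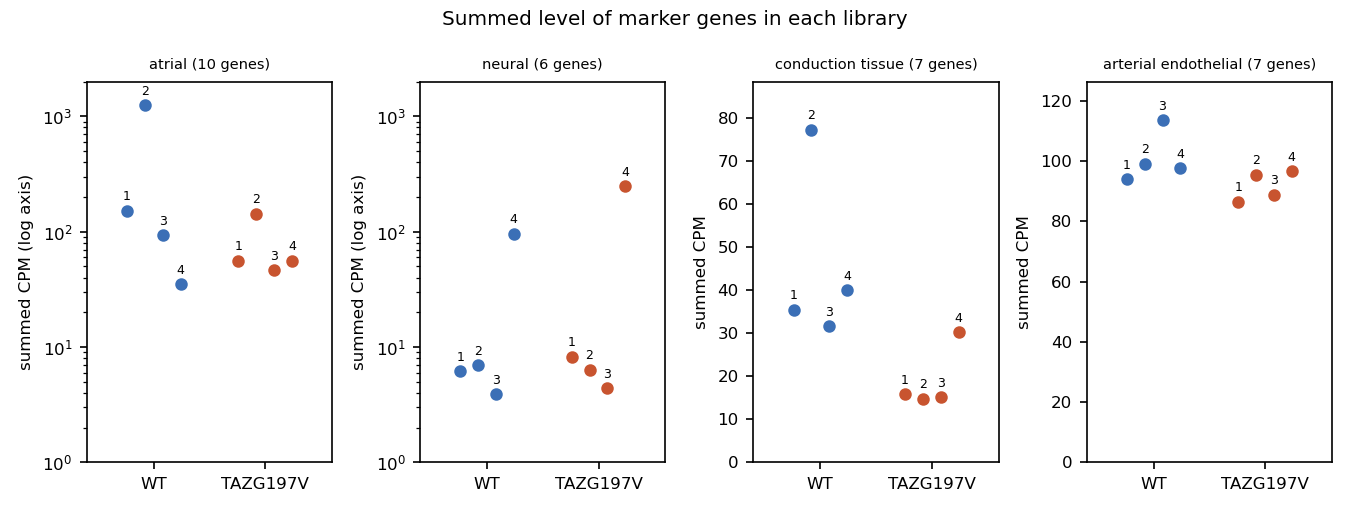
Summed CPM of 4 lists of marker genes in each library, numbered as in the labels, on a log axis for the atrial and neural lists and on a linear axis from 0 for the conduction tissue and arterial endothelial lists. WT 2 stands apart at 1244 CPM of atrial markers and both libraries numbered 4 stand apart in neural markers, while the conduction tissue markers are lower in every TAZG197V library than in any WT library.

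Gjc1, the gene for connexin 45, is on chromosome 11 from 102799579 to 102819700 and is known from the sinus and atrioventricular nodes as well as from the embryonic heart. Its level was 20.7, 22.97, 17.2 and 17.9 CPM in WT 1 to 4 and 14.9, 16.7, 13.1 and 13.6 CPM in TAZG197V 1 to 4. Every TAZG197V library lay below every WT library, by a narrow margin between TAZG197V 2 and WT 3. The mean was 19.7 ± 2.65 CPM in WT and 14.6 ± 1.63 CPM in mutant hearts (SD, n = 4 each), and the log2 fold change was -0.39 (SE 0.10, 95% interval -0.61 to -0.16, edgeR adjusted p = 0.0154). The value was -0.46 within lane 7, where it was called, and -0.40 within lane 8, where it was not (edgeR adjusted p = 0.198). The call was also lost without WT 1 (-0.33, edgeR adjusted p = 0.0692) and without both WT 1 and WT 2 (-0.27, edgeR adjusted p = 0.125).

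Levels of different connexins were compared per kilobase of their principal transcripts. On that scale Gja1 made up 86.5 ± 2.67% of all connexin transcripts in WT and 88.9 ± 2.38% in TAZG197V hearts (SD, n = 4 each). Gjc1 made up 4.67 ± 1.12% in WT and 3.52 ± 0.919% in TAZG197V, and Gja5 made up 1.39 ± 0.403% and 0.950 ± 0.121%. The connexin transcripts of these pieces of heart were thus mostly Gja1 in both genotypes. The ratio of Gja5 to Gja1 was lower in TAZG197V by 0.56 on the log2 scale, and the groups overlapped. The ratio of Gjc1 to Gja1 was lower by 0.46 and also overlapped. Ratios of genes were chosen after the values of the single genes were seen and are given as descriptions, with no test.

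Of the 23 connexin and pannexin genes listed, 9 were tested, and Gja5 and Gjc1 were the 2 called, both lower, beside 33.4% of all tested genes called and 15% called lower. Gja3, a connexin best known from the lens, had a log2 fold change of -0.28 (edgeR adjusted p = 0.0662), and Gja4, the arterial endothelial connexin 37, had -0.03 (edgeR adjusted p = 0.886). The other 14 listed genes, among them the epidermal connexins, had too few counts to be tested. The median log2 fold change of the 9 tested genes was -0.04.

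For Gja5, which was lower in TAZG197V hearts, and Gja1, the most abundant connexin, which was not called, the 250 bases before the RefSeq transcription start are shown. The sequences are from RefSeq on GRCm38.p6, read 5′ to 3′ on the strand of the gene. Capitals mark matches, on either strand, to AAGTG, the core of an NK2 homeobox motif, GGGCGG, a GC box, or AGGTGT, the core of a T-box motif. None of these motifs overlapped another in the windows shown.
Gja5, chr3:97032152-97032401, plus strand: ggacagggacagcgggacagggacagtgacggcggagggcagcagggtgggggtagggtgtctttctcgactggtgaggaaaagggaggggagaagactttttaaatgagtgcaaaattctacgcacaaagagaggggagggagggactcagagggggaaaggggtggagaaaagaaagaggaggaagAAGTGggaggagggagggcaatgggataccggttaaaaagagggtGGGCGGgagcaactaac
Gja1, chr10:56377050-56377299, plus strand: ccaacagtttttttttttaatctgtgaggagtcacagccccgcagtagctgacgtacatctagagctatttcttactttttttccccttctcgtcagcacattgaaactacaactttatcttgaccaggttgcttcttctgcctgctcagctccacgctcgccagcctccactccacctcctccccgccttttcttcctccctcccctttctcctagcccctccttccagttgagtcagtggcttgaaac
The Gja5 window held AAGTG 62 bases and GGGCGG 17 bases before the start and lies in an intron of a longer annotated transcript of the gene. The Gja1 window held none of the 3 motifs. Of the other genes with such a window, Scn4b, which was called lower, also held none. Dsp and Jup, which were not called, each held 1 AGGTGT, with 4 matches to GGGCGG in Dsp and 2 in Jup. Among 32817 promoters of the same length, 40.7% held AAGTG, 32.7% held GGGCGG and 11.8% held AGGTGT. A match of this kind describes the letters only.

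Scn4b, on chromosome 9 from 45138395 to 45154152, showed the largest change of the 9 genes. It encodes the beta-4 subunit, a membrane protein with an immunoglobulin fold that modulates the opening of the sodium channel. Its level was 39.4, 40.6, 60.9 and 45.1 CPM in WT 1 to 4 and 15.8, 16.3, 13.3 and 15.4 CPM in TAZG197V 1 to 4. The highest TAZG197V library was well below the lowest WT library. The mean fell from 46.5 ± 9.92 to 15.2 ± 1.33 CPM (SD, n = 4 each), so that TAZG197V hearts held 0.327 of the WT level. The fitted log2 fold change was -1.64 (SE 0.14, 95% interval -1.96 to -1.32, edgeR adjusted p = 8.74e-05). It was -1.31 within lane 7 (edgeR adjusted p = 3.81e-05) and -1.89 within lane 8, where it was not called (edgeR adjusted p = 0.074). Scn4b was called in 21 of 22 alternatives, including the one without WT 1 and WT 2, where it was -1.80.

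Of 18 listed sodium channel genes 14 were tested, with 5 called lower and 2 called higher, beside 15% and 18.5% of all tested genes, and a median log2 fold change of -0.03. Scn4a, the pore gene of skeletal muscle, was lower, from 36.6, 24.9, 33.2 and 45.2 CPM in WT to 6.83, 5.02, 4.65 and 5.21 CPM in TAZG197V. The fitted change was -2.74 on the log2 scale (SE 0.13, edgeR adjusted p = 5.63e-06), and it was called in all 22 alternatives. Fgf12, whose product binds sodium channels, was called lower at -0.96, but its fitted value ran from -3.98 to 0.82 over the alternatives. Scn3b, the beta-3 subunit gene, was called higher at 0.67. It was highest in the libraries numbered 4, at 3.26 CPM in WT 4 and 8.95 CPM in TAZG197V 4, the libraries with the most neural transcripts. The part of those transcripts in the Scn3b value was not tested.

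Pkp2 and Dsc2 were the desmosome genes among the 9 that were called, in opposite directions. Pkp2, on chromosome 16 from 16213318 to 16272712, encodes plakophilin 2, an armadillo-repeat protein that links the desmosomal cadherins to desmoplakin. Its level was 177, 163, 171 and 126 CPM in WT 1 to 4 and 279, 271, 223 and 238 CPM in TAZG197V 1 to 4. Every TAZG197V library lay above every WT library. The mean rose from 159 ± 22.9 to 253 ± 26.5 CPM (SD, n = 4 each), 1.59 times the WT level, with a log2 fold change of 0.70 (SE 0.10, 95% interval 0.46 to 0.93, edgeR adjusted p = 0.00127). The value was 0.70 within lane 7 (edgeR adjusted p = 0.00121) and 0.63 within lane 8 (edgeR adjusted p = 0.209), and Pkp2 was called in 21 of 22 alternatives.

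Dsc2, on chromosome 18 from 20030633 to 20059554, encodes desmocollin 2, a desmosomal cadherin. Its level was 60.4, 63.1, 56.1 and 72.3 CPM in WT 1 to 4 and 45.7, 39.3, 42.7 and 41.3 CPM in TAZG197V 1 to 4, again without overlap. The mean was 63.0 ± 6.85 CPM in WT and 42.3 ± 2.7 CPM in mutant hearts (SD, n = 4 each), and the log2 fold change was -0.58 (SE 0.09, 95% interval -0.78 to -0.38, edgeR adjusted p = 0.00135). It was -0.54 within lane 7 (edgeR adjusted p = 0.00406) and -0.61 within lane 8 (edgeR adjusted p = 0.174). Dsg2, on chromosome 18 from 20558074 to 20604521, encodes desmoglein 2, the other desmosomal cadherin of heart muscle, and was at 114, 99.0, 106 and 145 CPM in WT and at 112, 100.4, 99.2 and 95.3 CPM in TAZG197V. WT 4 was the high library and the groups overlapped, with a log2 fold change of -0.22 (SE 0.09, 95% interval -0.43 to -0.01, edgeR adjusted p = 0.0915). The ratio of Dsc2 to Dsg2 was lower in TAZG197V by 0.40 on the log2 scale between the group means, without overlap.

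Dsp, on chromosome 13 from 38151294 to 38198577, encodes desmoplakin, which ties the plaque to the desmin filaments, and was the most abundant of the 9 in CPM. It stood at 1793, 1536, 1457 and 1799 CPM in WT 1 to 4 and at 1605, 1356, 1377 and 1359 CPM in TAZG197V 1 to 4. TAZG197V 1 stood apart from the other TAZG197V libraries, within the WT range. The log2 fold change was -0.22 (SE 0.10, 95% interval -0.46 to 0.01, edgeR adjusted p = 0.119). Jup, on chromosome 11 from 100368958 to 100397763, encodes plakoglobin, an armadillo-repeat protein of desmosomes and adherens junctions, and was at 249, 223, 249 and 246 CPM in WT and at 239.9, 220.2, 202 and 195 CPM in TAZG197V. The groups overlapped through WT 2, and the log2 fold change was -0.19 (SE 0.07, 95% interval -0.35 to -0.03, edgeR adjusted p = 0.0601). Dsp and Jup passed the threshold under DESeq2 (adjusted p = 0.0431 and 0.0341), at -0.23 and -0.20 on the log2 scale. Within lane 7 the fitted values were -0.17 for Dsp, -0.04 for Jup and 0.003 for Dsg2, and within lane 8 they were -0.25, -0.32 and -0.37.

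The same values can be read as ratios. The ratio of Pkp2 to Dsp was higher in TAZG197V by 0.88 on the log2 scale and that of Pkp2 to Jup by 0.85, each without overlap. The ratio of Dsc2 to Dsp was lower by 0.37, also without overlap. Per kilobase of the principal transcript, Dsp stood at 172 ± 18.3 CPM per kilobase in WT, Jup at 75.5 ± 3.87, Pkp2 at 54.5 ± 7.86, Dsg2 at 20.1 ± 3.57 and Dsc2 at 13.6 ± 1.48 (SD, n = 4 each). In TAZG197V hearts the means were 148 for Dsp, 66.9 for Jup, 86.6 for Pkp2, 17.7 for Dsg2 and 9.13 for Dsc2. Jup and Pkp2 thus changed places, and the order of the others was the same.

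**Figure D3:**
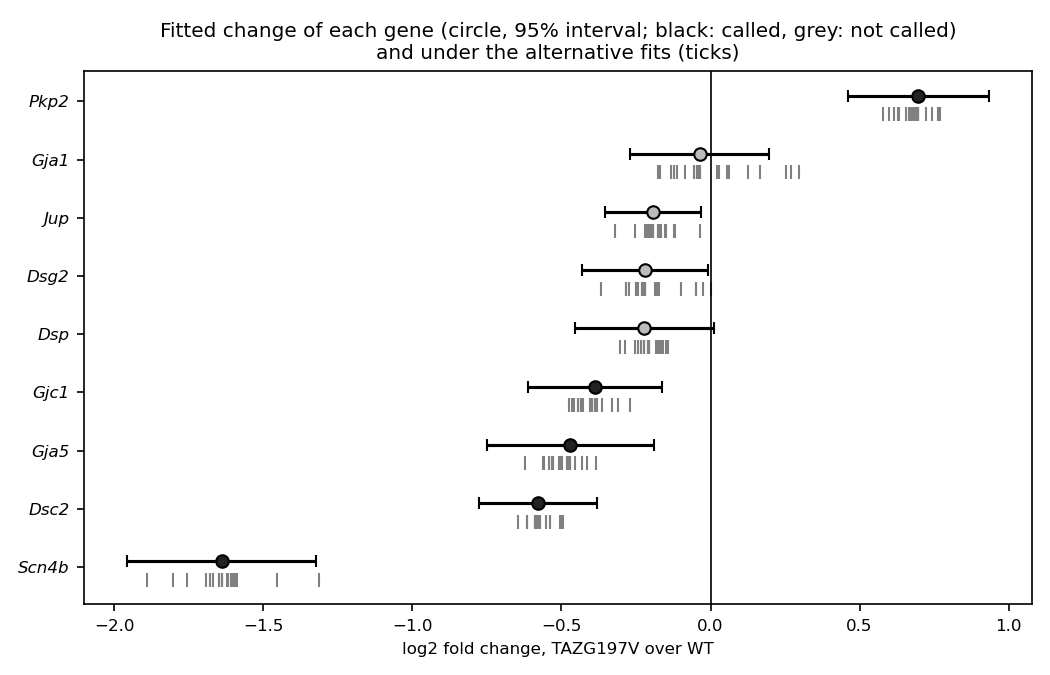
Fitted log2 fold change of TAZG197V over WT (horizontal axis) for each of the 9 genes, as a circle with its 95% interval, black where called and grey where not, with a grey tick below for each of 22 alternative analyses. The ticks of Scn4b, Dsc2, Gja5 and Gjc1 stay below 0 and those of Pkp2 above 0, while those of Gja1 lie on both sides, from -0.18 to 0.30.

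Of 19 listed desmosome genes 10 were tested, with 3 called higher and 2 called lower, beside 18.5% and 15% of all tested genes. Besides Pkp2, the higher ones were Pkp4, a plakophilin relative, at 0.48 (edgeR adjusted p = 0.00208) and Perp, a membrane protein of epithelial desmosomes, at 0.63 (edgeR adjusted p = 0.000254). Besides Dsc2, the lower one was Ppl, the gene for the plaque protein periplakin, at -1.38 (edgeR adjusted p = 5.32e-05). Pkp4, Perp and Ppl did not overlap between genotypes. The 9 desmosome genes under the filter on low counts included the epidermal desmogleins. The 5 skin and mucosal epithelium markers summed to 1.28 to 2.36 CPM in WT and 1.43 to 1.90 CPM in TAZG197V, mostly Krt10, which was not called. Des, the gene for desmin, was not called at 0.27 (edgeR adjusted p = 0.0654). All 22 listed genes of the adherens junction and the rest of the intercalated disc were tested, with 1 called higher and 5 lower, beside the same shares of all genes, and a median of -0.04. Ctnnb1, the gene for beta-catenin, was called higher at 0.21, close to the limit of the call rule, and in only 5 of 22 alternatives, with edgeR adjusted p up to 0.475. Ctnna3, Tmem65 and Bves were lower by 0.50, 0.44 and 0.30 on the log2 scale. Tmem65 encodes a membrane protein of the intercalated disc and Ctnna3 encodes alpha-T-catenin, which binds plakophilin 2.

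**Figure D4:**
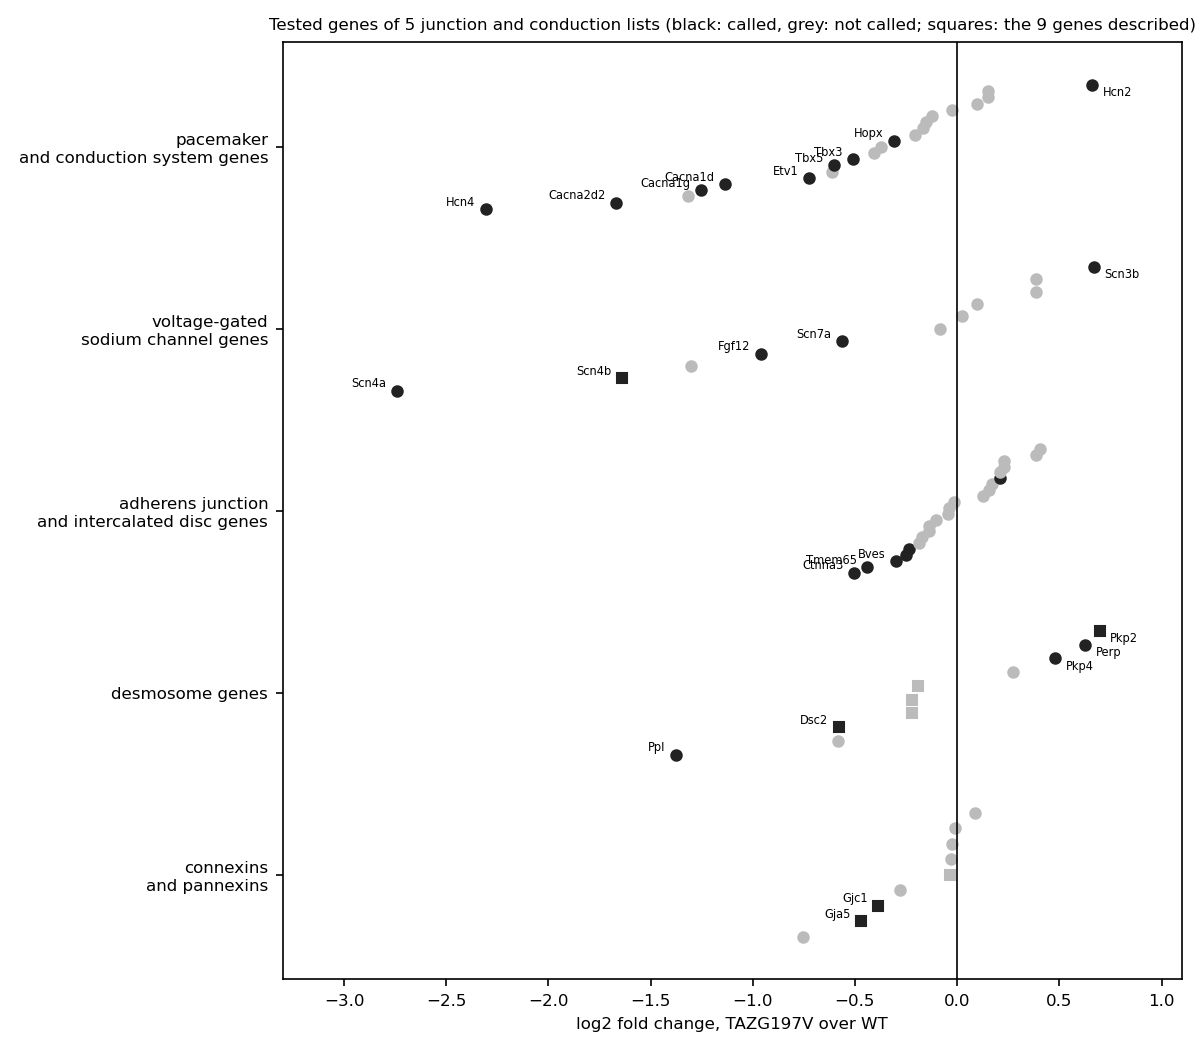
Fitted log2 fold change of TAZG197V over WT (horizontal axis) for tested genes of 5 lists, ordered within each list, black where called and grey where not, with squares for the 9 genes described. The desmosome list has 3 genes called higher and 2 called lower, and the connexin list has 2 called lower.

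Of 24 genes listed for pacemaker cells and the conduction system, 22 were tested, and 9 were called lower and 1 higher, beside 15% and 18.5% of all tested genes, with a median log2 fold change of -0.39. Hcn4, the main pacemaker channel gene, lay at 16.3, 15.2, 10.8 and 13.6 CPM in WT 1 to 4 and at 2.65, 2.40, 2.19 and 3.89 CPM in TAZG197V 1 to 4. Its log2 fold change was -2.31 (SE 0.14, edgeR adjusted p = 1.78e-05), and the groups were far apart. Cacna2d2, a calcium channel subunit gene, was called lower at -1.67, with its highest value, 15.4 CPM, in WT 2. Hcn2, a related channel gene, was called higher at 0.66 (edgeR adjusted p = 0.00166). Tbx3 and Tbx5, transcription factor genes of the conduction system, were called lower at -0.51 and -0.60.

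The summed level of the 7 conduction tissue markers was 31.5 to 77.2 CPM in WT and 14.8 to 30.1 CPM in TAZG197V libraries. The sums did not overlap, and 4 of the 6 tested markers were called lower, beside 15% of all tested genes. Of these 6, 3 did not overlap between genotypes, beside 33.2% of all tested genes. Shox2 and Isl1, which mark the sinus node, were at or near 0, with at most 1.70 CPM for Shox2 and 0.137 CPM for Isl1, both in WT 2. The conduction tissue markers were highest in WT 2, the library with the most atrial transcripts, and, within TAZG197V, in TAZG197V 4, the library with the most neural transcripts. They moved in the same direction as Scn4b, Gja5 and Gjc1, and their part in those results was not tested. Among other cell types, 3 of 5 fibroblast markers were called lower, beside 15% of all tested genes. Their summed levels were 751 to 1252 CPM in WT and 503 to 697 CPM in TAZG197V. Of 6 endothelial markers 2 were called lower, beside the same 15%. The endothelial sums overlapped, at 762 to 1049 CPM in WT and 626 to 779.8 CPM in TAZG197V. Of 5 epicardial markers 1 was called lower, and the 5 macrophage markers gave no call. Of 6 smooth muscle and pericyte markers 4 were called lower, among them Myh11 at -0.97 and Rgs5 at -0.42, and Acta2 was called higher at 1.16. The shares of all tested genes were 15% called lower and 18.5% called higher. The smooth muscle and pericyte sums overlapped, at 852 to 1016 CPM in WT and 791 to 961 CPM in TAZG197V. The part of these cell types in the changes of the 9 genes was not tested either.

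The genes whose profile over the 8 libraries was most like that of each gene were found among 13259 genes, by the root mean square difference of log2 CPM after each profile was centred on its mean. The difference between genotypes is part of each profile, so genes near a strongly changed gene share its direction by construction. Nearest to Scn4b were Prr33 (0.152), Gm12167 (0.179) and Mlxipl (0.202), all lower in TAZG197V. Nearest to Pkp2 were 9130401M01Rik (0.0548), Cfl2 (0.0737) and Dctn3 (0.0738), all higher. The nearest profiles were Zfp521 (0.0579) and Lrrk1 (0.0755) for Gjc1, Aldh9a1 (0.0657), Arrdc1 (0.0696) and Hook1 (0.0842) for Dsc2, and Gm37621 (0.133), Hic1 (0.134) and Ctf1 (0.141) for Gja5. For Gja1 they were Hps1 (0.101), Mkln1os (0.112) and Sh3bp5 (0.117), and for Jup they were Unc45b (0.0345), Cerk (0.0372) and Tmod1 (0.0387). Dsp was nearest to Ipp (0.0596), Spen (0.0603) and Nckipsd (0.0604), and Dsg2 to Pde4d (0.0504), Trim65 (0.0608) and Zfp809 (0.0636).

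Parts of some of these genes share bases or sequence with other genes, so that their counts are less certain. Of the annotated exon bases, 2.87% of Gja5 lie over Gpr89, 5.17% of Dsp over Gm10129 and 3.99% of Dsg2 over Gm16090. Among all windows of 50 bases, the length of the reads, 15.3% of those in annotated Gja5 transcripts also occur in transcripts of Gpr89 or Zfp697, but none of those in its principal transcript do. The share was 4.66% for Dsp and 3.53% for Dsg2, 0.764% for Jup, 0.115% for Gja1 and 0.0396% for Gjc1, and 0% for Scn4b, Pkp2 and Dsc2. How the counting treated reads that fit several genes is not given in the sources used here.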

How the data were processed

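RNA from pieces of heart of 4 WT and 4 TAZG197V mice was sequenced as single-end reads of 50 bases. Per the submitters' processing notes and the study's methods, the authors used bcl2fastq 2.20.0, FastQC 0.11.9, STAR 2.7.3a on mm10 and featureCounts of Subread 2.0.0. The deposited files hold raw read counts, 1 whole number for each gene, summed over exons. The annotation release, strand and treatment of multi-mapping reads are not given in the sources used here. The rows for ERCC spike-ins (92) summed to 0 and were left out. Of 55471 gene IDs 55230 had a symbol in GENCODE M21 (GRCm38, the assembly named mm10), from which positions were taken.

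Genotypes were compared with edgeR 4.0.16 under R 4.3.3 (filterByExpr, TMM, quasi-likelihood F-test, two-sided, Benjamini-Hochberg adjustment over 15084 genes) with 2 surrogate variables from svaseq (sva 3.50.0, random seed 1, genotype protected). The SE of a log2 fold change is its size over the square root of F. The models were checked on simulated data, where the fitted changes lay near the true ones but many moderate changes were not called, so a gene that was not called may still differ. The members and lists were chosen with earlier results of these data known. All 9 genes were named, and from each list the called genes with the largest changes, up to 3 in each direction, besides genes needed to account for the list. The lane was read from the names of the deposited data. Log2 ratios of genes were taken within each library. Some genes of the lists and the ratios that hold them are not reported here, although the counts and medians of the lists include them. Levels between genes are CPM per kilobase of the longest principal transcript, while reads were counted over all exons. Total counts of 23055689 to 36301031 leave the spread between libraries as the main error of the 9 genes, Gja5 with the fewest counts included. No library was a copy of another (chi-square per gene at least 10.2 within a genotype). Alternatives were DESeq2 1.42.0, other covariates, scalings, filters and call rules, and subsets of libraries.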

Additional observations from a re-analysis of the deposited data

Results flagged for a closer look

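In 4 samples, the highest or lowest value was singled out when its gap to the nearest other value exceeded the 95% critical value of Dixon's test on the range of the group. Of 44 groups of values examined, 9 passed this limit, and chance alone passes about 1 group in 20. Among the 9 genes, Dsp was highest in TAZG197V 1 (gap 0.908 of the range of log2 CPM) and Jup was lowest in WT 2 (0.879). Among the summed markers on the log2 scale, the conduction tissue list (0.903), the neural list (0.845) and the adipocyte list (0.834) were highest in TAZG197V 4, and the atrial list was highest in TAZG197V 2 (0.830). That atrial sum, 143 CPM, was mostly Nppa, at 127 CPM. The epicardial list was lowest in TAZG197V 1 (0.848). Within WT, the endothelial list was highest in WT 3 (0.901) and the fibroblast list was highest in WT 2 (0.881).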

How the results depend on the processing

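Of the 9 genes 5 were called, beside 33.4% of all tested genes. This count was 7 with DESeq2 (31.2% of all genes called), 4 without surrogate variables (27.8%) and 5 with 1 surrogate variable (31.6%). It was also 5 with lane as a covariate (28.1%), with the other scalings (33.5%), without the filter (15.9%) or by adjusted p alone (38%). With a fold change of at least 1.5 it was 2 (all genes 1831, the 5 lists 16, against 5043 and 30), Gja5, Gjc1 and Dsc2 losing their calls at the values already given (-0.47, -0.39, -0.58). Within lane 8 it was 0 (all genes 45, the lists 1) and within lane 7 it was 4 (all genes 4455, the lists 31). Without WT 1 and WT 2, added after the data were seen, it was 3 (all genes 3660, the lists 18). Leaving out 1 library at a time gave 4 to 7 of the 9 genes, 3666 to 4814 of all genes and 20 to 34 in the lists. Without surrogate variables Gja5 was not called (-0.53, edgeR adjusted p = 0.0597). Dsp and Dsg2 were called lower without WT 3 (-0.30 and -0.28) and Jup without TAZG197V 1 (-0.25). The cause of these changes was not tested.

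The replicate block left 5 of the 9 genes called and 4272 of all genes. Across genotypes, log2 CPM about the genotype mean correlated at 0.277, 0.0436, 0.28 and 0.416 between libraries of the same number. Between libraries of unlike number it ran from -0.464 to 0.317, so the value for number 4 lay above that range. Nothing in the labels pairs libraries of the same number, so the number was not treated as a pairing in the main fit. Gja1 changed sign to 0.028 with the replicate block, to 0.056 without surrogate variables, to 0.022 with 1, to 0.061 with lane, to 0.167 without the filter, to 0.27 without both libraries numbered 4 and to 0.298 within lane 7. Leaving out 1 library gave Gja1 between -0.134 and 0.254, with 0.126 without WT 4. Dsg2 was 0.003 within lane 7. Gja5 rested on as few as 113 counts in a library, yet its spread between libraries exceeded counting error.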
